A study of Mus musculus with 6 samples.

Results

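A set of 10 genes that have been reported as targets of miR-143 in other tissues was followed in mouse hepatocytes with and without induction of this microRNA. The genes were Mapk7, Klf5, Elk1, Igfbp5, Hk2, Dnmt3a, Fndc3b, Limk1, Add3 and Fscn1. They were chosen by name, and each was read by the probe sets whose platform annotation gives that gene alone, both singly and as their mean. This gave 158 of the 234873 probe sets and 10 of 20416 genes. The samples were primary hepatocytes of adult C57BL/6 mice, 3 transgenic for a doxycycline-inducible miR-143 allele (miR-143DOX) and 3 wildtype littermates (control). Mice of both groups drank doxycycline at 4 mg/ml with 10% sucrose for 8 days, so the control group shares the drug and lacks the transgene. The labels do not name the promoter that drives the transgene, and miR-143 was not measured here. One Affymetrix array was read per mouse, and the unit throughout is log2 intensity.

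A microRNA is a short RNA that guides an Argonaute protein to messenger RNAs with a matching site, mostly in the 3' untranslated region, and lowers their stability or their translation. miR-143 is best known from smooth muscle, where it is transcribed together with miR-145 and acts on regulators of growth and of the actin cytoskeleton. The targets followed here fall into 3 roles: signalling and transcription (Mapk7, Klf5, Elk1, Igfbp5), metabolism and chromatin (Hk2, Dnmt3a, Fndc3b), and the cytoskeleton (Limk1, Add3, Fscn1). An array reads the RNA level, so an effect on translation alone is outside this measurement.

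None of the 10 genes differed between the groups beyond the spread between mice. The differences (miR-143DOX minus control) ran from -0.12 for Fndc3b to 0.18 for Hk2, with standard errors of 0.13 to 0.17 and 3 mice per group. In limma's moderated test over all genes, 0 of 10 passed 5% false discovery rate (FDR), with the adjusted p at 0.9997 for each, and 0 reached an unadjusted p under 0.05. The background in the same fit was 0% of 15312 genes at 5% FDR (0 genes, smallest adjusted p = 0.735) and 3.06% at an unadjusted p under 0.05. Of the 10 genes 4 lay below 0 and 6 above, where 47.6% of all genes tested lay below 0. Their median difference was 0.03, beside 0.0083 over all genes, and their median absolute difference was 0.098 beside 0.099. The values of both groups overlapped for all 10, while the groups were separate, with every mouse of one group above every mouse of the other, for 7.13% of all genes.

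The 95% intervals give the range of change in a gene's mean that these 6 arrays allow. Their lower ends lay between 0.714-fold for Igfbp5 and 0.926-fold for Hk2, and their upper ends between 1.14-fold for Elk1 and 1.43-fold for Limk1. Smaller changes in either direction lie inside the intervals and were not detectable with this number of arrays. Each interval covers its own gene and not the 10 jointly. The limits hold for the mean of all probe sets of a gene, dim ones included. On the log2 scale, 3 other summaries fell outside them. These were the median level of the probe sets in each array for Igfbp5 (-0.50, against a lower end of -0.49) and the brightest probe sets of Hk2 (-0.36, against -0.11) and of Elk1 (0.25, against an upper end of 0.19).

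**Figure D1:**
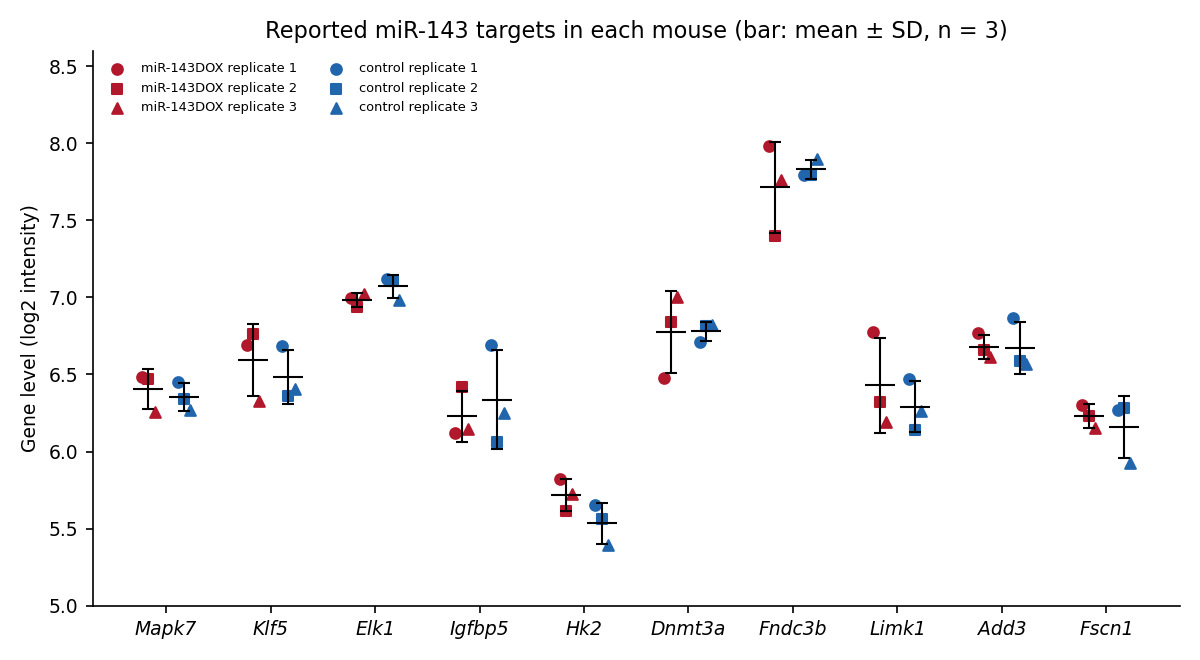
Level of each gene (y axis, log2 intensity, mean of its probe sets after quantile normalization) in each of the 3 miR-143DOX and 3 control mice, with a symbol for each replicate and black bars for mean ± SD. The groups overlap for every gene, and the levels of different genes are not comparable with each other.

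Among the signalling and transcription genes, Mapk7 encodes ERK5, a MAP kinase that activates MEF2 factors. It measured 6.49, 6.47 and 6.26 in the miR-143DOX mice and 6.45, 6.34 and 6.27 in the control mice. The lowest value of all belonged to a miR-143DOX mouse, and 2 other mice of that group were the highest. The means were 6.40 ± 0.13 against 6.35 ± 0.09 (SD, n = 3 each), a difference of 0.05 with a standard error of 0.13. Klf5, a zinc finger factor of proliferating epithelium and smooth muscle, measured 6.69, 6.76 and 6.33 in miR-143DOX and 6.69, 6.36 and 6.41 in control. Here too the miR-143DOX group held both the highest and the lowest mouse. The difference was 0.11 (standard error 0.16, 95% interval -0.23 to 0.46).

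Elk1 encodes an ETS factor that binds serum response elements with SRF. Its values were 6.99, 6.93 and 7.02 in miR-143DOX and 7.12, 7.11 and 6.98 in control, so that 2 control mice stood above all miR-143DOX mice and the third among them. The difference was -0.09 with a standard error of 0.13 and an interval of -0.36 to 0.19. Igfbp5 encodes a secreted protein that binds insulin-like growth factors. It measured 6.12, 6.42 and 6.15 in miR-143DOX and 6.69, 6.06 and 6.25 in control. Control replicate 1 was the highest and control replicate 2 the lowest of the 6. The means were 6.23 ± 0.16 against 6.34 ± 0.32 (SD, n = 3 each) and differed by -0.11 (standard error 0.17), and the difference was 0.069 without control replicate 1. Its sign thus depended on that mouse.

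Hk2 encodes hexokinase 2, the hexokinase of muscle and of many tumours, whereas hepatocytes rely mainly on glucokinase. It measured 5.82, 5.61 and 5.72 in miR-143DOX and 5.65, 5.56 and 5.39 in control. The means were 5.72 ± 0.10 against 5.53 ± 0.13 (SD, n = 3 each), and only control replicate 1, above miR-143DOX replicate 2, made the groups overlap. This was the member farthest from 0, at 0.18 with a standard error of 0.14 and an interval of -0.11 to 0.48 (limma unadjusted p = 0.199). The direction depended on how the probe sets were combined. The median level of its probe sets in each array gave -0.048, and the brightest probe set -0.36. The median of the differences of its 19 probe sets was 0.33, with 13 of them above 0.

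Dnmt3a, a de novo DNA methyltransferase, measured 6.48, 6.84 and 7.00 in miR-143DOX and 6.71, 6.81 and 6.82 in control. The miR-143DOX mice lay on both sides of the control mice, and the means of 6.77 ± 0.27 and 6.78 ± 0.06 (SD, n = 3 each) differed by -0.0059 (standard error 0.15). Fndc3b, a membrane protein with fibronectin type III domains that takes part in adipocyte differentiation, measured 7.98, 7.40 and 7.76 in miR-143DOX and 7.80, 7.79 and 7.90 in control. The highest and the lowest mouse were both miR-143DOX, with SDs of 0.29 and 0.06. The difference was -0.12 with a standard error of 0.16, and 0.041 without miR-143DOX replicate 2, the mouse with the lowest value.

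Among the cytoskeletal genes, Limk1 encodes LIM kinase 1, which phosphorylates cofilin and so slows the turnover of actin filaments. It measured 6.78, 6.32 and 6.19 in miR-143DOX and 6.47, 6.14 and 6.27 in control. One miR-143DOX mouse, replicate 1, stood above all others, and without it the difference of 0.14 (standard error 0.17) was -0.035. Add3 encodes gamma-adducin, which links actin to spectrin, and measured 6.77, 6.66 and 6.61 in miR-143DOX and 6.86, 6.58 and 6.57 in control. The control mice spanned the miR-143DOX mice, and the difference was 0.0082 (standard error 0.14). Fscn1 encodes fascin, a bundler of actin filaments. It measured 6.30, 6.23 and 6.15 in miR-143DOX and 6.27, 6.28 and 5.92 in control, a difference of 0.07 (standard error 0.14) that was -0.046 without control replicate 3, the lowest mouse.

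**Figure D2:**
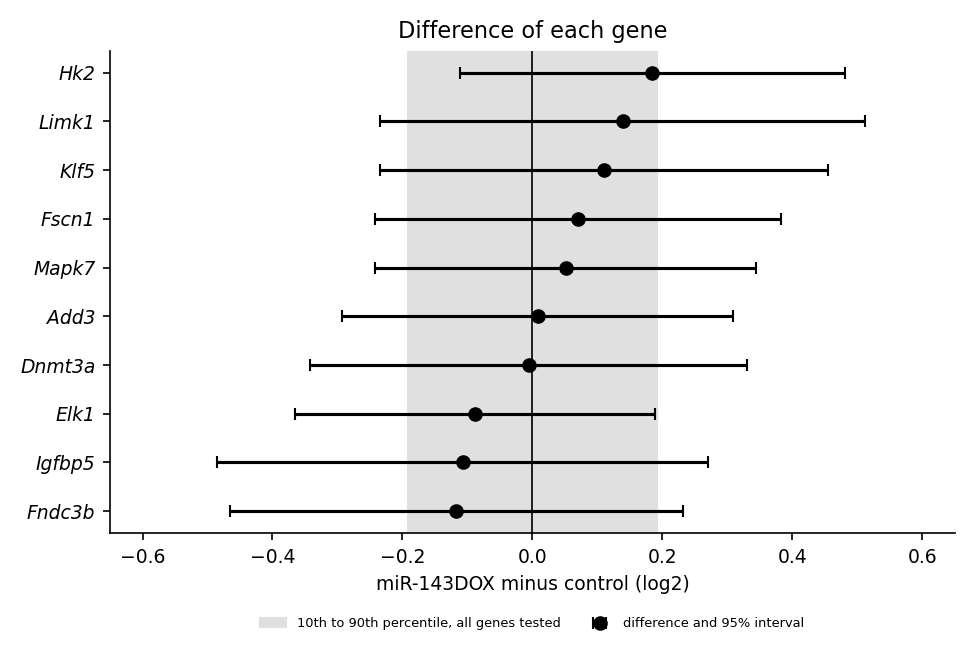
Difference of each gene (x axis, miR-143DOX minus control, log2; points) with the 95% interval of the limma fit (bars, 3 mice per group), over the grey span from the 10th (-0.19) to the 90th (0.19) percentile of all 15312 genes tested. All 10 intervals include 0 and all 10 points lie inside the grey span.

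The 10 genes were also compared array by array, as deviations from each gene's own mean over the 6 arrays. In control replicate 1, 9 of the 10 lay above their mean, and in miR-143DOX replicate 1, 7 did. In control replicate 3 and in miR-143DOX replicate 3, 2 of the 10 lay above. The mean deviation was 0.11 in control replicate 1 and 0.079 in miR-143DOX replicate 1, against -0.085 in control replicate 3 and -0.044 in miR-143DOX replicate 3. These arrays of opposite groups leaned the same way, and within each group the arrays leaned in different ways. The largest single deviations were 0.42 for Limk1 in miR-143DOX replicate 1, 0.41 for Igfbp5 in control replicate 1 and -0.37 for Fndc3b in miR-143DOX replicate 2.

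**Figure D3:**
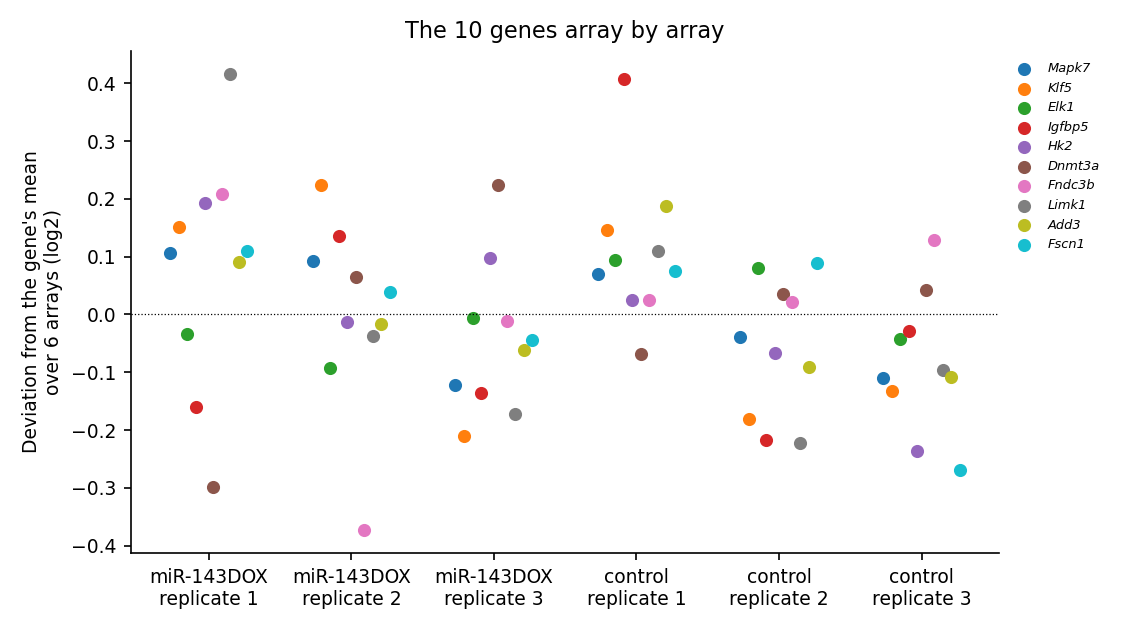
Deviation of each of the 10 genes (colours) from its own mean over the 6 arrays (y axis, log2) in each array (x axis). The genes lie mostly above 0 in control replicate 1 (9 of 10) and mostly below 0 in replicate 3 of both groups (2 of 10 above 0 in each).

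Each gene was read by 5 (Fscn1) to 30 (Fndc3b) probe sets, which makes it possible to see whether a change ran along the whole transcript. Probe sets in the lowest 25% of mean level were left out, which kept 134 of the 158. Of these, 63 lay below 0 and 71 above, a share of 47% below 0 beside 49.1% of all 176155 probe sets tested. None passed 5% FDR in limma, where the background was 0%. An unadjusted p under 0.05 was reached by 8, 4 lower and 4 higher, which is 5.97% beside a background of 4.18% (2.19% lower and 1.99% higher). Of the 8, 4 (10386726 of Mapk7, 10416783 of Klf5, 10545593 and 10545607 of Hk2) had a group mean under the limit of 5.07 and were tested only through the brighter group, so their counts and differences support no change. The groups were separate for 14, 9 lower and 5 higher, which is 10.4% beside a background of 8.85% (4.54% lower and 4.31% higher). All 10 genes had tested probe sets on both sides of 0. Where along its transcript a probe set lies was not used here.

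**Figure D4:**
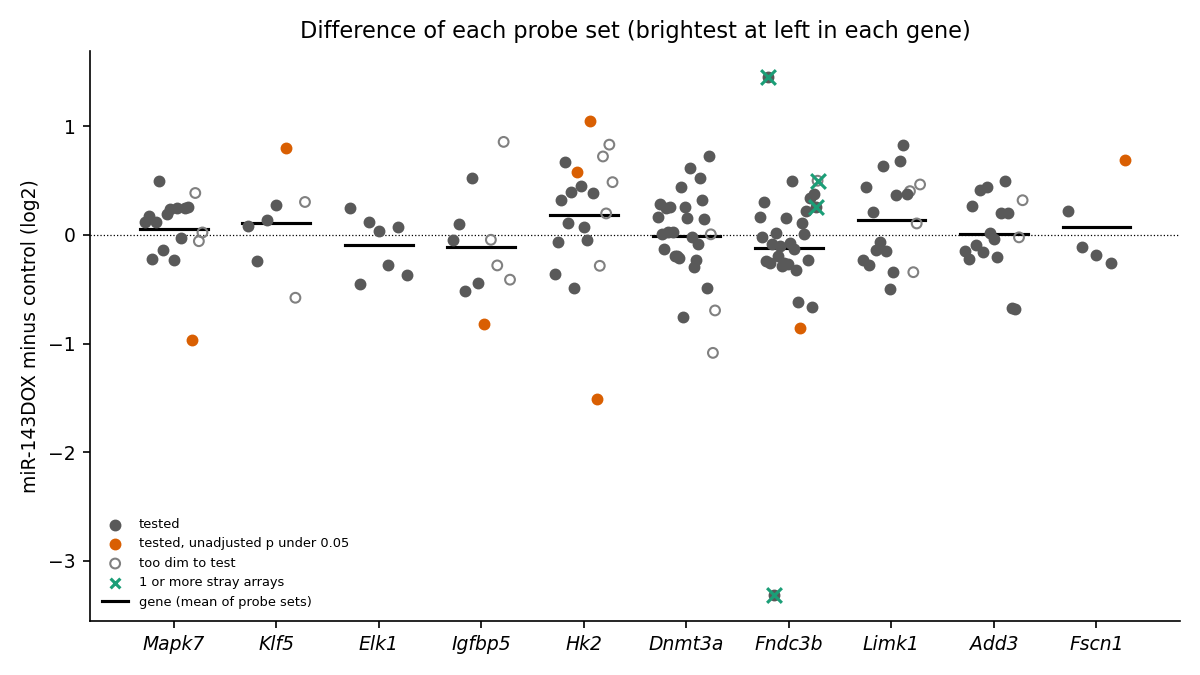
Difference of each of the 158 probe sets (y axis, miR-143DOX minus control, log2), grouped by gene and ordered by level within a gene, with the mean of the gene's probe sets as a black bar. Probe sets of every gene lie on both sides of 0, the 8 at an unadjusted p under 0.05 (orange) point both ways, and the lowest point, at -3.31, is a Fndc3b probe set with a stray value in 1 array (cross).

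Igfbp5 had the probe set with the smallest unadjusted p of all 134. Probe set 10355510 measured 6.05, 5.99 and 5.78 in miR-143DOX and 6.91, 6.68 and 6.67 in control, so that every miR-143DOX mouse lay below every control mouse. The difference was -0.82 (standard error 0.20, limma unadjusted p = 0.00413, adjusted p = 0.9995), and it lay between -0.87 and -0.74 over 12 alternatives. Probe set 10355501 of the same gene was separate the other way, at 7.24, 7.55 and 7.16 in miR-143DOX against 6.96, 7.02 and 6.37 in control (difference 0.53, standard error 0.25). The brightest, 10355506, differed by -0.049. Of the 6 tested probe sets of Igfbp5 4 lay below 0, and another 4 were too dim to test, among them the highest difference of the gene, 0.86. Taken by the median level of its 10 probe sets in each array, Igfbp5 differed by -0.50 (standard error 0.20, limma unadjusted p = 0.0292, adjusted p = 1). Different probe sets can give that median in different arrays. The median of the differences of the 10 probe sets was -0.16.

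Hk2 held 3 probe sets at an unadjusted p under 0.05 among 14 tested, where 4.18% of all probe sets tested reached it. These 3 pointed opposite ways. Probe set 10545607 measured 5.06, 3.70 and 4.60 in miR-143DOX and 6.47, 5.45 and 5.98 in control, a difference of -1.51 with a standard error of 0.41 and with separate groups. Probe set 10545598 measured 6.13, 6.30 and 6.00 in miR-143DOX and 5.33, 5.63 and 5.73 in control, a difference of 0.58 with a standard error of 0.21 and with the groups separate the other way. The third, 10545593, differed by 1.05 (standard error 0.39) and overlapped. Their unadjusted p-values in limma were 0.00689, 0.0284 and 0.0316, and the adjusted p was 0.9995 for each. The means of 10545607 in miR-143DOX (4.46) and of 10545593 in control (4.86) lay under the limit of 5.07 for testing, and only the brighter group carried them past it. That limit marks the lowest 25% of probe sets by mean level. Where signal meets background was not measured, as no detection call was used.

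In Fndc3b a few stray values weighed on the gene. Probe set 10497572 measured 15.02 in control replicate 1, against 8.11 and 7.61 in the other control mice and 6.73, 6.91 and 7.16 in miR-143DOX. Its difference of -3.31 (standard error 1.77) fell in size to -0.93 without control replicate 1. Probe set 10497554 measured 5.92 in control replicate 2 and from 9.18 to 10.10 in the other 5 mice, which gave 1.46 (0.28 without that array). Over all probe sets, 1627 (0.693%) held an array more than 3 log2 units from the median of the other 5, and control replicate 1 had the most of any array, 606, with 365 of them above and 241 below. In Fndc3b 4 of 30 probe sets were of this kind, and in the other 9 genes none. Leaving such probe sets out of every gene gave 8.08, 7.64 and 7.85 in miR-143DOX and 7.85, 8.00 and 7.99 in control for Fndc3b, a difference of -0.092 (standard error 0.15). The groups still overlapped.

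**Figure D5:**
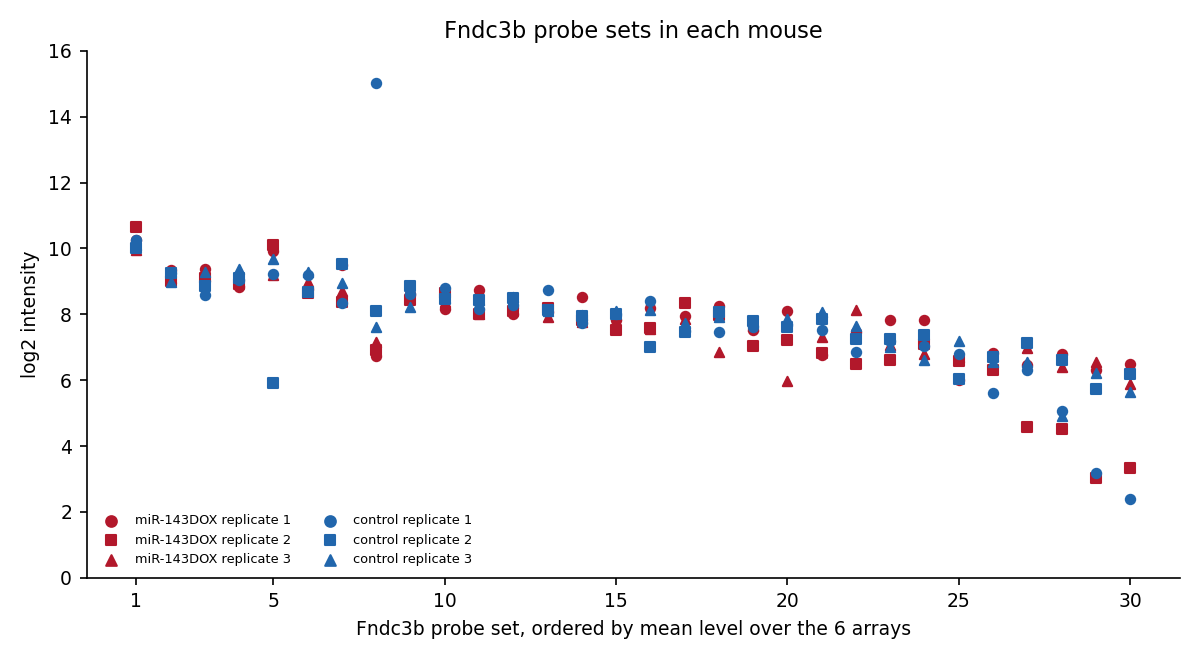
The 30 probe sets of Fndc3b, ordered by mean level (x axis), with the log2 intensity in each mouse (y axis; red miR-143DOX, blue control, 1 symbol per replicate). In the 8th probe set control replicate 1 stands at 15.02 while the other 5 mice lie between 6.73 and 8.11, and in the 5th control replicate 2 stands at 5.92.

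Among the 29 tested probe sets of Fndc3b, 4 were separate without a stray value, 3 lower and 1 higher. Of all probe sets tested, 8.85% were separate. Probe set 10497561 measured 6.75, 6.82 and 7.33 in miR-143DOX and 7.51, 7.87 and 8.08 in control, a difference of -0.86 with a standard error of 0.26 (limma unadjusted p = 0.0115, adjusted p = 0.9995). Over 12 alternatives it lay between -1.04 and -0.73. Probe set 10497569 was separate the other way, at 7.94, 8.35 and 7.87 in miR-143DOX against 7.49, 7.47 and 7.72 in control (difference 0.49, standard error 0.22). The other pair, 10497574 and 10497573, gave -0.24 and -0.27 with standard errors of 0.20 and 0.21. The brightest probe set of the gene, 10497578, differed by 0.16 and overlapped.

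The other probe sets at an unadjusted p under 0.05 were 1 each of Mapk7, Klf5 and Fscn1. In Mapk7, probe set 10386726 measured 4.24, 5.22 and 4.86 in miR-143DOX and 6.29, 5.68 and 5.25 in control, which were separate (difference -0.97, standard error 0.36), but its miR-143DOX mean of 4.77 lay under the limit for testing. The remaining 13 tested probe sets of Mapk7 ran from -0.23 to 0.49, and among them 10386733 was separate the other way (0.26, standard error 0.20). In Klf5, probe set 10416783 differed by 0.80 (standard error 0.31), with a control mean of 4.82 under that limit, and in Fscn1 probe set 10527162 by 0.69 (standard error 0.29), and both overlapped. In Klf5 the probe set 10416778 was separate in the opposite direction, at 8.37, 8.47 and 8.16 in miR-143DOX against 8.61, 8.51 and 8.61 in control (difference -0.24, standard error 0.19).

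Elk1, Dnmt3a, Limk1 and Add3 had no probe set at an unadjusted p under 0.05. The lowest and highest differences were -0.45 and 0.25 among 7 probe sets of Elk1, and -1.09 and 0.72 among 28 of Dnmt3a, whose lowest was too dim to test. They were -0.50 and 0.82 among 18 of Limk1, and -0.68 and 0.50 among 17 of Add3. The brightest probe set of Limk1, 10534342, measured 10.53, 10.91 and 10.10 in miR-143DOX and 10.76, 10.79 and 10.67 in control, and differed by -0.23 where the gene's mean differed by 0.14. The groups overlapped in it. They were separate in 10534338 of Limk1 (0.82, standard error 0.36) and, the other way, in 10463918 of Add3 (-0.22, standard error 0.20).

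Whether the probe sets of a gene differed among themselves was tested with limma's diffSplice over all 16160 genes with more than 1 tested probe set, a test chosen after seeing these values. By its F-test 0 of the 10 genes passed 5% FDR, with 0.0371% of all genes as the background. Hk2 came closest (unadjusted p = 0.0133, adjusted p = 0.907). By the Simes form, which looks for a single probe set apart from the rest, Fndc3b had an adjusted p of 0.0238, where 0.798% of all genes passed, and 0.99 without stray probe sets, where 0.545% passed. The other 9 genes had adjusted p of 0.104 or more.

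Genes whose level followed a member most closely over the 6 arrays were looked up among 13504 other named genes tested. The highest Pearson r was 0.998 for Mapk7 with Ankrd55, 0.998 for Klf5 with Oas3, 0.984 for Elk1 with Ano10, 0.988 for Igfbp5 with Cnih and 0.996 for Hk2 with Actn4. It was 0.992 for Dnmt3a with Vtn, 0.995 for Fndc3b with Mbnl2, 0.994 for Limk1 with Phc2, 0.998 for Add3 with Fzd2 and 0.996 for Fscn1 with Aldh4a1. With so few arrays, such values are common: the number of genes above r of 0.95 ran from 10 for Dnmt3a to 131 for Mapk7. The arrays share their normalization, and these figures describe these 6 mice only.

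The genes that work with each member were read from 11 lists of pathway partners, family members and further reported targets. Of 197 list entries 173 were tested, 14 were too dim and 10 were not used here, and 0 passed 5% FDR. An unadjusted p under 0.05 was reached by 8 (4.62% beside 3.06% of all genes). The ERK5 cascade around Mapk7 had 7 of 14 genes below 0, with a median of 0.0014. Its smallest p-values belonged to the MEF2 factor gene Mef2b (0.27, standard error 0.16) and to Map3k3, a kinase upstream of ERK5 (-0.22, standard error 0.14), at unadjusted p in limma of 0.123 and 0.142.

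Krueppel-like factors other than Klf5 split evenly, 7 below and 7 above 0, with a median of 0.025. An unadjusted p under 0.05 was reached by 4 of the 14, 3 higher and 1 lower, where 3.06% of all genes tested reached it. The list was chosen with earlier results of these data known, so this count was not tested. Klf10, a gene induced by TGF-beta, measured 8.35 ± 0.31 in miR-143DOX against 7.87 ± 0.05 in control, and Klf12 measured 8.44 ± 0.17 in miR-143DOX against 8.86 ± 0.14 in control (SD, n = 3 each). The differences were 0.48 and -0.42, with separate groups and limma adjusted p of 0.9997. Among partners and targets of Elk1 with SRF, 12 of 20 lay above 0 (median 0.028). Fos, the classical serum response gene, differed by 0.36 (standard error 0.17, overlapping groups). The smooth muscle gene Tagln differed by 0.33 (standard error 0.14, separate groups). Smooth muscle markers did not move together: of 11 tested, 6 lay above 0 and 5 below. Among those below, Myh11 differed by -0.19 (standard error 0.13), with the groups separate the other way.

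In the axis of insulin-like growth factors around Igfbp5, 9 of 11 genes lay below 0, with a median of -0.10. Igfbp2 measured 9.75 ± 0.11 in miR-143DOX against 10.34 ± 0.43 in control (SD, n = 3 each), a difference of -0.59 with separate groups (limma unadjusted p = 0.00973, adjusted p = 0.9997), and Igfbp4 differed by -0.26 with overlapping groups. Markers of sinusoidal endothelium lay on the same side, 13 of 15 below 0 with a median of -0.11, and the part of these cells in the Igfbp values was not tested. In hepatocytes of a bulk preparation, fewer cells of a type and less RNA per cell cannot be told apart.

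Of hexokinases and glycolysis genes other than Hk2, 18 of 21 lay above 0, with a median of 0.11, and none reached an unadjusted p under 0.05. The differences were 0.32 for Pgk1 (standard error 0.16) and 0.27 for Pfkm (0.14; limma unadjusted p = 0.0712 and 0.0722, adjusted p = 0.9997). Among enzymes and readers of DNA methylation besides Dnmt3a, 8 of 13 lay above 0 (median 0.063). Gadd45a, a stress gene linked to demethylation, differed by 0.62 (standard error 0.18, unadjusted p in limma of 0.00538), and the hemimethylation reader Uhrf1 by -0.31 (standard error 0.14). The relatives of Fndc3b gave differences of -0.12 for Fndc3a and -0.054 for Fndc4.

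The 18 LIM kinase and cofilin genes around Limk1 had a median of 0.0076, with -0.18 for Limk2 and 0.19 for the cofilin gene Cfl1. The membrane skeleton genes around Add3 had a median of 0.057, with -0.28 for Ank3 and 0.19 for Epb4.1l1. Actin bundling genes around Fscn1 had a median of 0.045, with 0.44 for Pls3 (standard error 0.20, unadjusted p in limma of 0.0492) and 0.19 for Actb. Further genes that have been named as miR-143 targets, 32 tested with Hk2 among them, lay 10 below and 22 above 0, with a median of 0.031 and none at an unadjusted p under 0.05. Abl2 and Plaur had the smallest p-values there, with differences of 0.25 and -0.21.

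The labelled cell type was checked with marker lists. The albumin gene Alb measured 14.41 ± 0.08 in miR-143DOX and 14.37 ± 0.22 in control mice (SD, n = 3 each). The hepatocyte factor gene Hnf4a gave 10.81 ± 0.13 in miR-143DOX and 10.74 ± 0.22 in control mice. The 19 hepatocyte markers had a median difference of 0.015, with the largest for Serpina1a at -0.98 (overlapping groups). Several members are also expressed in the other cells of a liver preparation, which the arrays cannot separate. The summed linear signal of 15 stellate cell and fibroblast markers ran from 1800 to 2260 in miR-143DOX and from 1810 to 2050 in control. That of 11 smooth muscle markers ran from 503 to 553 in miR-143DOX and from 508 to 540 in control. For 15 Kupffer cell marker entries it ran from 2200 to 3000 in miR-143DOX and from 2420 to 2620 in control. The Kupffer list names the same gene as both Adgre1 and Emr1, and its median includes both entries. For 15 endothelial markers the sum ran from 2270 to 3070 in miR-143DOX and from 2870 to 3070 in control. These ranges overlapped. The medians were 0.042 for stellate cells (Pdgfrb 0.23), 0.04 for smooth muscle and 0.065 for Kupffer cells (Timd4 -0.20). They were 0.011 for cholangiocytes (Spp1 -0.32), 0.057 for lymphocytes (Cd8a 0.20) and -0.11 for endothelium (Clec4g -0.37). The gene in brackets is the marker farthest from 0, whichever way its list leaned. Of 15 Kupffer cell entries 10 lay above 0 (Cd5l 0.18) and 5 below. Of 7 cholangiocyte markers 4 lay above 0 (Krt7 0.14) and 3 below. In miR-143DOX replicate 1, where Limk1 was highest, the stellate, smooth muscle and Kupffer sums were the highest of the 6 arrays. For smooth muscle the next sum was close, 540 in control replicate 2. That array also had the highest sums of lists that mark no cell type, such as glycolysis (29600) and actin bundling (9660). Its hepatocyte, cholangiocyte and lymphocyte sums were not the highest. The part of stellate, smooth muscle and Kupffer cells in the Limk1 value was not tested.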

How the data were processed

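Per the labels' protocols, hepatocytes were frozen after collagenase perfusion and total RNA was labelled with biotin for whole transcript arrays. The deposited values are log2 intensities per probe set from Partek, per the submitters' processing notes. The log base was taken from their range of 1.60 to 15.2. Of the background correction, normalization and summary nothing is stated. The values were quantile normalized, and a gene is the mean of its probe sets. The lowest 25% by mean level were left out, of genes (under 5.06) and of probe sets (under 5.07). The test was limma 3.58.1, run in R 4.3.3 (lmFit, eBayes, two-sided, Benjamini-Hochberg over all 15312 genes or 176155 probe sets). The steps were tested on simulated data. The number of arrays limits the precision. Arrays correlated at 0.936 to 0.954.

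The members and lists were chosen with earlier results of these data known, so lists are given as counts without a test. By rule the text names all 10 members, their probe sets at an unadjusted p under 0.05 or at the extremes, up to 2 genes per list with the smallest p, the gene closest in pattern, and up to 2 markers per cell type; the tested probe sets with separate groups, the brightest probe sets described, and Alb and Hnf4a, were added after their values were seen. Symbols are those of the platform annotation (6 list entries matched through another symbol), and 22776 probe sets with several or no symbols were not used for genes. Alternatives were other normalizations, filters and summaries, a trended robust prior, weights for arrays, a block for the replicate number, and leaving out 1 array at a time. Leaving out stray probe sets and diffSplice were added after seeing the data.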

Additional observations from a re-analysis of the deposited data

How the results depend on the processing

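Under 17 alternatives for genes and 12 for probe sets, 0 members, 0 of their probe sets and 0 genes or probe sets of the whole table passed 5% FDR. The sign of a member's difference turned under other summaries of its probe sets. With the median level of the probe sets in each array it turned to -0.048 for Hk2 and 0.063 for Dnmt3a. With the brightest probe set it turned to 0.25 for Elk1, -0.36 for Hk2, 0.17 for Dnmt3a, 0.16 for Fndc3b, -0.23 for Limk1 and -0.14 for Add3. With only probe sets above the lowest 25% it turned to 0.064 for Dnmt3a and -0.011 for Add3. Array weights turned Igfbp5 to 0.035. With each array left out the differences ran from -0.12 to 0.14 for Dnmt3a, -0.035 to 0.26 for Limk1, -0.044 to 0.10 for Add3, -0.25 to 0.041 for Fndc3b, -0.24 to 0.069 for Igfbp5 and -0.046 to 0.13 for Fscn1. The cause was not tested. Mapk7 (0.0095 to 0.16) and Klf5 (0.026 to 0.28) kept their sign under all 17. Hk2 was too dim for testing with the lowest 50% left out and with only brighter probe sets, and Fscn1 with the latter. With the median level of the probe sets in each array 1 member (Igfbp5) reached an unadjusted p under 0.05. The members' probe sets at that p numbered 5 with an intensity trend and robust prior, and 5 to 11 with each array left out.

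Genes at an unadjusted p under 0.05, 469 in all, numbered 299 with the lowest 50% left out, 1021 with array weights and 300 to 1128 with each array left out. With the replicate number as a block they numbered 734, and the block passed 0 members. A separate check of the numbers gave same-numbered arrays correlations of 0.107, 0.0468 and 0.296 for replicates 1, 2 and 3. These are not correlations of the levels themselves, which lay between 0.936 and 0.954 for all arrays. The same number was the best partner for replicates 2 and 3 and not for replicate 1. The main fit did not take the numbers as pairs, and these few correlations do not settle whether they were. The level of dim probe sets cannot be told from background, as no detection call was used.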
